A study of Mus musculus with 14 samples.

Results

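The regions described here held a Sin3B peak in growing C2C12 myoblasts and no peak of Sin3B in myotubes or of Sin3A at either stage. They were chosen by which lists gave a peak, so the listed peaks are themselves what selected them. All peaks were merged where they overlapped by at least 1 bp over 4 deposited peak lists, and merged regions that held a peak of the Sin3B myoblast list and of no other were kept. There were 880 of them, each made of 1 peak, among 5137 merged regions in all (17.1%, 95% exact binomial interval 16.1 to 18.2) and among 2348 regions with Sin3B in myoblasts (37.5%, interval 35.5 to 39.5). C2C12 is a mouse skeletal muscle line with a C3H genetic background. Sin3B myoblast samples (2 in the labels) came from cells growing in 10% fetal bovine serum. The lists set against them were from Sin3A in the same myoblasts (2 samples), and from Sin3A (2) and Sin3B (5) in myotubes, which confluent cells had formed in 2% horse serum and which had then been parted from undifferentiated cells with diluted trypsin. Samples of the same group carried the same file, which leaves 1 list per group. The Sin3B myoblast list has 2387 peaks, the Sin3A myoblast list 691, the Sin3A myotube list 759 and the Sin3B myotube list 3769. With n = 1 list per group there is no spread between cultures to test a difference between stages. Tests below take regions as units and compare parts of these lists. Peak height and read depth are unknown, so a region missing from a list is one where no peak was listed. A longer list leaves fewer regions outside it, and the rule was applied to lists of unequal length. The labels give the Sin3A and Sin3B antibodies the same catalogue number, and what this does to the listed peaks was not tested.

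Sin3A and Sin3B are large scaffold proteins without DNA binding of their own. They hold the histone deacetylases HDAC1 and HDAC2 with partner subunits, and sequence-specific factors bring the complex to genes, where removal of histone acetyl groups is tied mainly to lower transcription. In muscle, withdrawal of serum takes myoblasts out of the cell cycle before they fuse, and Sin3 complexes are known for acting with E2F, Rb-family and Myc-network repressors at growth genes and for work at sarcomere genes.

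No source used here names the genome build of the peak lists. Regions could be tied to genes only in stretches of chromosome where peaks and the starts of genes in the RefSeq table of GRCm38.p6 lay on top of each other without any shift. Placed from the other merged regions, 7 such stretches covered 126.8 Mb. In them 204 of 224 other regions (91.1%) had their centre within 1 kb of a gene start, against 396 of 4875 regions (8.12%) outside them. The stretches were chosen for having many of these other regions within 1 kb of a start. The contrast follows from that choice and is no check of the placement. The 7 stretches held 38 of the 880 regions, 20 of these on chromosome 16, 8 on chromosome 19, 6 on chromosome 8, 2 on chromosome 13 and 1 each on chromosomes 5 and 12. The other 842 (95.7%) are given by position alone, counted from 1 in the build of the files.

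RefSeq promoter windows of 300 bases (250 before to 50 after the start, GRCm38.p6, read along the gene's strand) are shown for 6 of the genes at these regions, so that the sequence under the peaks can be read. They were picked after their values were seen, as windows that lay wholly or mostly inside a peak. Capitals mark, on either strand, the GC box bound by Sp1-type factors (GGGCGG) and the box of the trimeric factor NF-Y, which is called by its letters CCAAT. They also mark the core motif of the ETS family of transcription factors (CCGGAAG), the core of the NRF1 motif (GCGCATGC), a short form of the motif of YY1 (AANATGGC) and the cAMP response element (TGACGTCA). Cdc16 and Klf6 lie on the plus strand and the other 4 on the minus strand.
Xab2: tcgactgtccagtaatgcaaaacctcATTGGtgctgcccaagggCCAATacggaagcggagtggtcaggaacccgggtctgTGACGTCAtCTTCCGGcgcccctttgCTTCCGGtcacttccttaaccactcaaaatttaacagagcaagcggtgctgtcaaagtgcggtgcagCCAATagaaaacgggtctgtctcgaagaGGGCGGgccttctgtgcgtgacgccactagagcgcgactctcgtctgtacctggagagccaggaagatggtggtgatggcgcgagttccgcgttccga
Lig4: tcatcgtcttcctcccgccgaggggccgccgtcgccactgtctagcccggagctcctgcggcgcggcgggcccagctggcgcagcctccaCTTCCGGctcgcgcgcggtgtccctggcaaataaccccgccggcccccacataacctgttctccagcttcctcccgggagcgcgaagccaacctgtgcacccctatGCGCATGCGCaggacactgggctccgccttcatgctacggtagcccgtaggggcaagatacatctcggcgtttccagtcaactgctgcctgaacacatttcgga
Dcun1d2: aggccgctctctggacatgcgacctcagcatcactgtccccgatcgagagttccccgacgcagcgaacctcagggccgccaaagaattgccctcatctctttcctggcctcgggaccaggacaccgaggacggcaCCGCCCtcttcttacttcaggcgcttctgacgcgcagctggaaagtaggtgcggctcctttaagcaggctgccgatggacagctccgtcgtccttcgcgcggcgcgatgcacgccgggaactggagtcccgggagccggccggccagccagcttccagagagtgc
Cdc16: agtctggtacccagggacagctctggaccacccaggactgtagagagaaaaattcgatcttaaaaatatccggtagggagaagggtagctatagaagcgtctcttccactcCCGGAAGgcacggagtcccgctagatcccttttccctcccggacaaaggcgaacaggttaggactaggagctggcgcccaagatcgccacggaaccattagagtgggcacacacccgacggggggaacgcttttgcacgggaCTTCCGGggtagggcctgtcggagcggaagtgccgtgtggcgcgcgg
Klf6: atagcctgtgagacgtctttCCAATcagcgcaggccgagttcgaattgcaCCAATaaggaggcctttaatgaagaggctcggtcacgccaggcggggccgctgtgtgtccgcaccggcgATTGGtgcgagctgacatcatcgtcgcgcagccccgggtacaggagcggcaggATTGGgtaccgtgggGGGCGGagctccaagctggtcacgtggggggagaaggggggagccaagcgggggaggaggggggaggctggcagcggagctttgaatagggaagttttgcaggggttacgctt
Ess2: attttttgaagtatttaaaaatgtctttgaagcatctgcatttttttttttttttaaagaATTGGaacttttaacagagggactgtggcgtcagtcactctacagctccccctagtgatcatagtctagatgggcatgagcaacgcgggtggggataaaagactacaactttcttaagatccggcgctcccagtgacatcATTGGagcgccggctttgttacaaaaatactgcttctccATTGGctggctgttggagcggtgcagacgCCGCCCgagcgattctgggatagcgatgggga
The peak at chr8:3621148-3621691 covered the whole 300-base window of Xab2, whose product acts in splicing and transcription-coupled DNA repair. A Sin3B myotube peak lay 88 bp from it, and the same window was also that of a region in myotubes alone. For the other 5 windows shown, the nearest peak of another list was over 10 kb from the region. The peak on chr8:9977326-9977892 covered 262 bases of the window of Lig4, the ligase of DNA end joining. The peak at chr8:13287915-13288365 covered 289 bases of the window of Dcun1d2, a neddylation factor. All 300 bases of the window of Cdc16, a subunit of the anaphase-promoting complex, lay in a peak at chr8:13757227-13758351. For Klf6, a zinc finger transcription factor, 208 bases lay in the peak at chr13:5861331-5861913, and for Ess2, a nuclear protein of the spliceosome, all 300 lay in that at chr16:17911080-17911669.

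Of the 38 regions placed on genes, 30 had their centre within 1 kb of a gene start (78.9%, interval 62.7 to 90.4). Distances here run from the start to the centre of the peak, and a minus sign means upstream. Of the 38, 10 had a peak of another list within 1 kb, so a gene named here may carry a Sin3 peak of the other lists as well. Several of the genes belong to genome upkeep and cell division. The centre lay at 71 bp for Lig4, at 133 bp for Cdc16 and at 130 bp for Top3b, a topoisomerase. It lay at -25 bp for Slx4, a scaffold of DNA-cutting nucleases, and at 285 bp for Dbf4, the activator of the kinase that fires replication origins. Others serve mitochondria. These were Pet100, an assembly factor of cytochrome oxidase, at -131 bp, Timm44, of the protein import motor, at 105 bp, and Ndufs8, a subunit of respiratory complex I, at -428 bp. Genes of RNA splicing were Xab2 at -86 bp, Ppil2 at 93 bp and Ess2 at -27 bp. Xab2 and Pet100 were named for the same region. Genes of the endoplasmic reticulum were Syvn1, the ubiquitin ligase of protein disposal there, at 372 bp and Dnajb11, a co-chaperone, at -320 bp. Among genes of signalling and transcription, Klf6 was met at 133 bp, Lztr1, an adaptor that leads Ras proteins to breakdown, at 451 bp, Socs1, an inhibitor of cytokine signalling, at 987 bp, and Map3k11, a kinase upstream of JNK, at 691 bp. These groups of genes were put together by known role after the values were seen, and no test was made of them.

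The other 8 of the 38 lay farther from a start. They included regions in the body or beside the gene of Adamts1, a matrix protease (1655 bp past the start), Rasa3, an inhibitor of Ras (1271 bp), and Hes1, the repressor driven by Notch (centre in the gene, 1206 bp from its nearer end). A Sin3B myotube peak lay 364 bp from the Rasa3 region, and a Rasa3 promoter was met by a region in myotubes alone. The long non-coding RNA Malat1 had a region at 3723 bp within it and an 18 bp region at -5785 bp. Near Pak2, a kinase of the actin cytoskeleton, the region was 14 bp wide and lay 3296 bp from the gene's end. Regions this narrow recur below.

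In the genes of the 13 lists compiled for muscle and Sin3 biology, few could be placed. Of 641 listed genes 31 lay in the stretches, and 3 of these 31 had a start within 1 kb of one of the regions, against 37 of all 967 protein-coding genes there (3.83%). For regions of both stages without Sin3A that was 6 of the 31 listed genes and 61 of the 967 (6.31%). For regions of myotubes alone it was 6 of the 31 and 112 of the 967 (11.6%). The 3 at regions in myoblasts alone were Fosl1, Klf6 and Ndufs8. Fosl1 and Klf6 are of the list of growth factor signalling and immediate early response. Ndufs8 is among 4 placed genes of the respiratory chain and ATP synthase. Fosl1 encodes Fra-1, an AP-1 subunit, and the region lay 463 bp from an end of the gene. The other 11 lists had 0 of 1 to 3 placed genes each, among them cell cycle and replication (0 of Cdc45, Mcm4 and Pola2), sarcomere and calcium handling (0 of Actn3 and Myom2) and myogenic regulators (0 of Mkx). With so few genes placed, no list can be called marked by the regions or free of them.

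For a comparison with the other Sin3B regions, the stretches were placed again from regions that held Sin3A, which are in none of the classes compared. In them, 22 of 29 regions with Sin3B in myoblasts alone (75.9%, interval 56.5 to 89.7) had their centre within 1 kb of a gene start, against 37 of 39 regions with Sin3B at both stages and no Sin3A (94.9%, interval 82.7 to 99.4). The difference of -19.0 percentage points had an adjusted p of 0.0490 (Fisher's exact test, two-sided, Benjamini-Hochberg over 2 tests). Against regions with Sin3B in myotubes alone, of which 65 of 71 were near a start (91.5%, interval 82.5 to 96.8), the difference was -15.7 points, with the same adjusted p of 0.0490 by that test. In the 7 stretches placed from all other regions, which lean towards the classes they were placed with, 30 of 38 regions in myoblasts alone were near a start, against 53 of 56 (94.6%) and 102 of 109 (93.6%), with an adjusted p of 0.0454 for each by Fisher's exact test. Both calls in the stretches placed from Sin3A regions sit at the threshold and were lost in 7 and 9 of 12 alternatives. Among the 12, leaving out chromosome X or a sample could not change them. These stretches lie on chromosomes 8, 16 and 19, and files of a group are identical. Without peaks under 50 bp the differences were -15.9 and -11.4 points, with an adjusted p of 0.135 for each by Fisher's exact test. With starts counted within 5 kb the first turned to 1.68 points (adjusted p = 1 by Fisher's exact test).

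**Figure D1:**
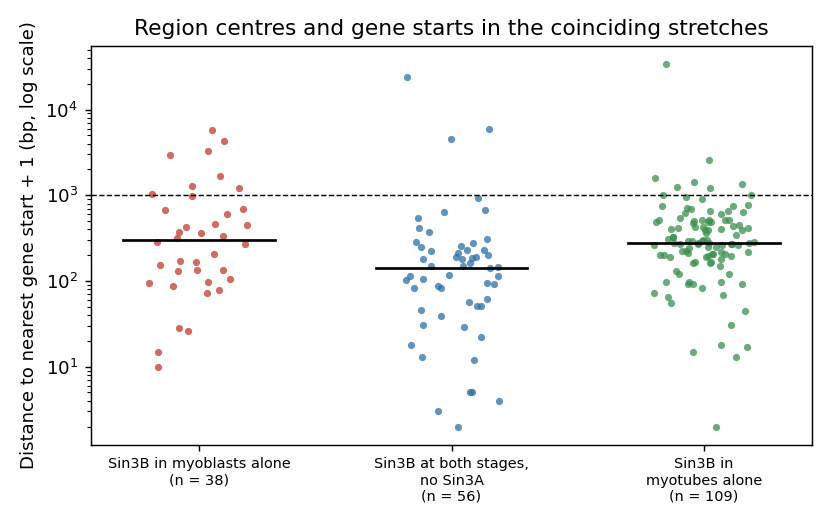
Distance from the region centre to the nearest gene start plus 1 (bp, log scale) in the 7 stretches placed from regions other than those in myoblasts alone, with 1 point per region, a bar at the median and a dashed line at the 1 kb limit. Above the line lie 8 of 38 regions with Sin3B in myoblasts alone, 3 of 56 with Sin3B at both stages and 7 of 109 with Sin3B in myotubes alone. Regions of both stages and of myotubes alone helped to place the stretches by their closeness to starts. The picture therefore leans towards these classes lying below the line.

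No difference in position around the start passed the threshold. Where the strand was known, 26 of them had a median centre of 101 bp past the start (quartiles -26.5 and 251), with 9 upstream and 17 downstream. The median was 90 bp over 41 regions with Sin3B at both stages (adjusted p = 0.684, permutation test of medians) and 239 bp over 85 regions in myotubes alone (difference -138 bp, adjusted p = 0.0955 by that test). Paired starts running apart from each other lay within 1 kb of 7 of the 30 regions near a start (23.3%, interval 9.93 to 42.3). Such pairs were Dbf4 with Slc25a40, Xab2 with Pet100, Lig4 with Abhd13, Dcun1d2 with Tmco3, Asxl2 with 1110002L01Rik, Tmem186 with Pmm2, and Map3k11 with Pcnx3. The share was 11 of 53 (20.8%) for regions of both stages and 15 of 102 (14.7%) for those of myotubes alone, with adjusted p of 0.788 and 0.548 by Fisher's exact test.

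Promoter windows were taken, 1 per region, from the nearest start within 1 kb that the RefSeq promoter table holds, which is not always the nearest start of all: for Lztr1 the window belonged to a start from which the region lay at -501 bp, and for Xab2 to one at -124 bp. Of the 26 windows, 3 (Asxl2, Pdxdc1 and Xab2) were also windows of regions in myotubes alone and stand in both classes. Without shared windows no test below changed its call. A window is sequence around a start and need not lie under the peak. The part of it inside the peak ran from 0 bases (Asxl2, Socs1, Lztr1, Col8a1 and Map3k11) to all 300 (Xab2, Cdc16, Pdxdc1 and Ess2). It was 13 bases for Ndufs8, 17 for Syvn1, 46 for Marf1 and 63 for Dbf4. GC content had a median of 59.7% (range 45.7 to 74.7), against 58.0% in 43 windows at regions of both stages (adjusted p = 0.672, permutation test of medians) and 64.0% in 87 windows at regions of myotubes alone (adjusted p = 0.159 by that test). The ratio of observed to expected CpG was 0.775 at the median (range 0.183 to 1.10), 0.871 at regions of both stages and 0.819 at those of myotubes alone, with an adjusted p of 0.447 for each by the permutation test. Over all 32851 promoter windows of the table the medians were 52.7% and 0.384.

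**Figure D2:**
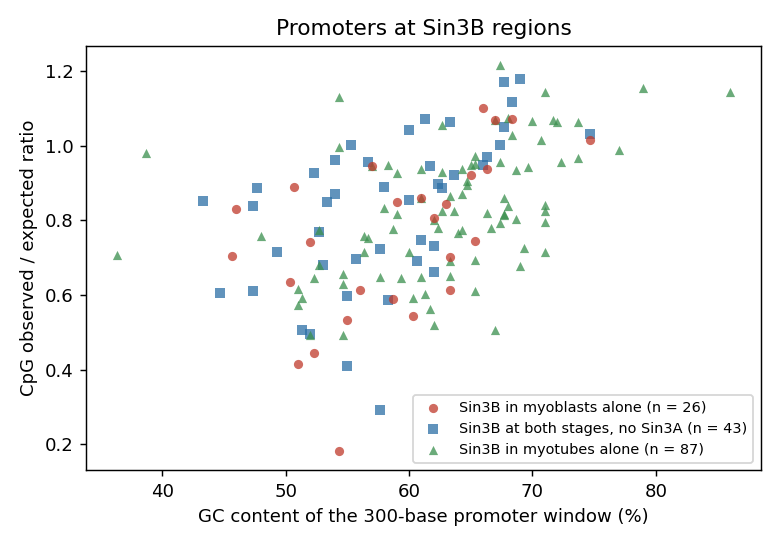
GC content (%) of the 300-base promoter window against its ratio of observed to expected CpG, 1 point per promoter, for 26 promoters at regions with Sin3B in myoblasts alone, 43 at regions of both stages and 87 at regions of myotubes alone. The 3 clouds overlap over most of their range, with medians of 59.7%, 58.0% and 64.0% GC.

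Of 20 motifs searched in these windows on both strands, 0 passed the adjusted threshold of 0.05 against either class (0% called each, Fisher's exact test), and 1 in each comparison had an unadjusted p under 0.05. The GC box stood in 16 of the 26 windows (61.5%, against 35.7% of all promoters), the CCAAT box in 13 (50%, against 37.4%) and the ETS core in 10 (38.5%, against 8.86%). The short YY1 motif stood in 4 (15.4%, against 6.05%), and the NRF1 core and the cAMP response element in 2 each (7.69%, against 2.71% and 1.79%). The other Sin3B classes held these motifs as well. The GC box stood in 41.9% of windows at regions of both stages and 72.4% at regions of myotubes alone, the CCAAT box in 34.9% and 55.2%, the ETS core in 37.2% and 25.3%, and the short YY1 motif in 27.9% and 13.8%. In the windows printed above the capitals show where these letters fall. The motif that passed unadjusted against regions of both stages was the E-box of the MyoD type (CAGCTG). It stood in 7 of 26 windows (26.9%), against 3 of 43 (6.98%) there (adjusted p = 0.620 by Fisher's exact test). Its share was 14 of 87 (16.1%) at regions of myotubes alone and 16.3% of all promoters. The motif that passed unadjusted against regions of myotubes alone was the RUNX motif (TGTGGT). It stood in 8 of 26 (30.8%), against 9 of 87 (10.3%) there (adjusted p = 0.479 by Fisher's exact test). Its share was 5 of 43 (11.6%) at regions of both stages and 16.8% of all promoters. Some of the motifs searched stood in 0 of the 26 windows. Among these was the stricter YY1 form (AAGATGGC), found in 2.75% of all promoters. Its share was 11.6% at regions of both stages and 8.05% at regions of myotubes alone. The AP-1 motif (TGANTCA), the GATA motif (AGATAA) and the E2F core (TTTCGCGC) stood in 0 as well, against 7.81%, 11.2% and 0.323% of all promoters. They were rare or absent in the other classes too. At regions of both stages and of myotubes alone, AP-1 stood in 6.98% and 2.30% of windows and GATA in 2.33% and 1.15%. The E2F core stood in 0% of windows in each of these classes. A match only says that the letters are in the window, which need not lie under the peak.

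Peaks of the regions were narrow within their own list. Because a wider peak has more chance to overlap another, width bears on the rule and is given without a test. The 880 peaks ran from 5 to 1415 bp, with a median of 442.5 bp and quartiles of 340 and 554 bp. Sin3B myoblast peaks in regions of both stages without Sin3A (1017 peaks) had a median of 544 bp, and those in regions with Sin3A (490 peaks) of 523.5 bp. Ordered by width and divided into 4 classes of about equal size, the Sin3B myoblast list gave 298 of its 599 narrowest peaks to these regions (49.7%), then 261 of 601 (43.4%), 201 of 590 (34.1%) and 120 of its 597 widest (20.1%). Peaks under 50 bp numbered 44 among the 880, 6 among the 1017 and 10 among the 490.

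**Figure D3:**
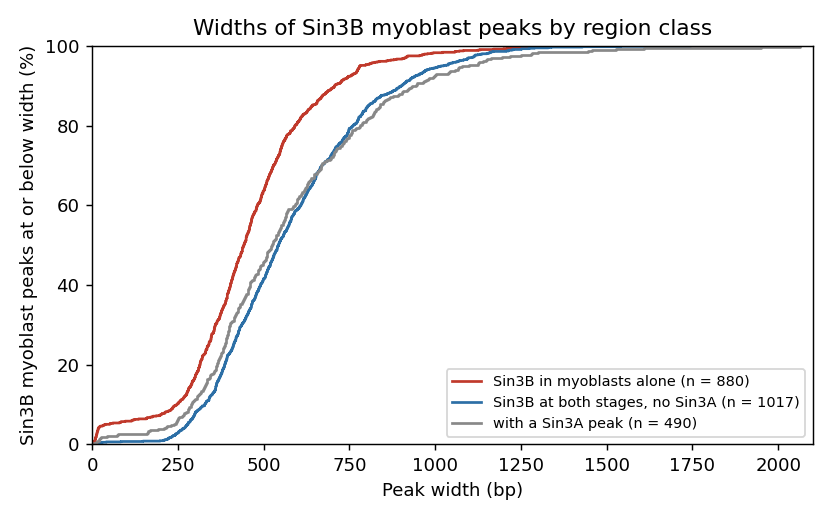
Share of Sin3B myoblast peaks (%) at or below each peak width (bp), as 1 line per class of region. The line of the 880 peaks in myoblasts alone lies to the left, with a median of 442.5 bp against 544 bp for regions of both stages without Sin3A.

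The widest regions were, in order, chr6:31037206-31038620 (1415 bp), chr14:106295051-106296355 (1305 bp) and chr15:53176109-53177401 (1293 bp). In all 15 were over 1000 bp wide, and 3 of these 15 had a peak of another list within 10 kb. The region at Cdc16, 1125 bp wide, was the only one of the 15 placed on a gene. A region of 1241 bp at chr1:82285761-82287001 lay 155 bp from another of the 880. The region of 1243 bp at chr4:102242596-102243838 had its nearest peak of any other list 2746294 bp away.

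Most regions lay over 10 kb from any peak of the other lists. The gap had a median of 61.3 kb (quartiles 11.6 and 204 kb). It was from 10 to 100 kb for 320 regions (36.4%), from 100 kb to 1 Mb for 302 (34.3%) and 1 Mb or more for 51 (5.80%). The most isolated were chr12:45310689-45311264 and chr14:14952955-14953667, with gaps of 4138403 and 4117288 bp. At the near end, 119 regions (13.5%) had a peak of another list within 1 kb and 207 (23.5%) within 10 kb. The neighbour within 1 kb was a Sin3B myotube peak for 108 regions (12.3% of the 880), a Sin3A myoblast peak for 15 (1.70%) and a Sin3A myotube peak for 13 (1.48%). The nearest list was Sin3B in myotubes for 749 regions (85.1%), Sin3A in myoblasts for 83 (9.43%) and Sin3A in myotubes for 48 (5.45%). These lists hold 3769, 691 and 759 peaks, and the longest is near most often. From the 880 regions to the nearest other peak of their own list, of 2387 peaks, the gap was larger. Its median was 119 kb (quartiles 21.7 and 391 kb).

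**Figure D4:**
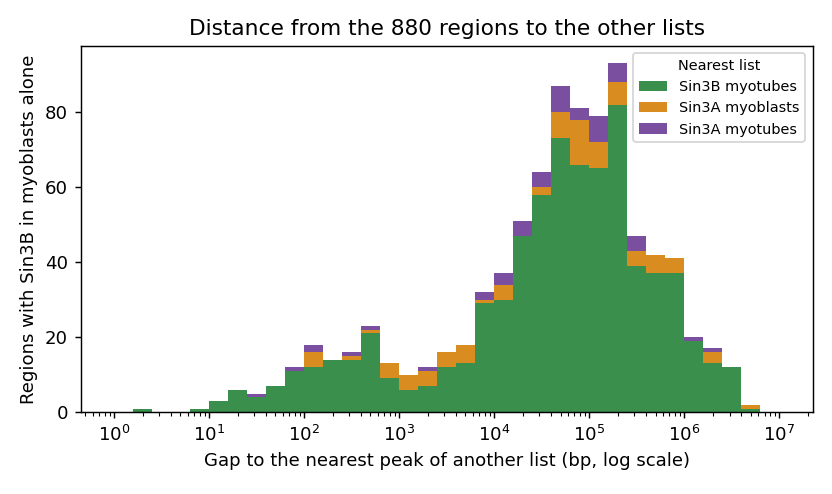
Number of the 880 regions by the gap to the nearest peak of another list (bp, log scale), stacked by which list that peak belongs to. Most gaps are over 10 kb, and the nearest list is Sin3B in myotubes for 749 regions.

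At the edge of the rule, the closest region kept was chr2:151319836-151320209, which lay 2 bp from a Sin3B myotube peak. Next were chr15:88693497-88693933 at 8 bp and chr1:55143885-55144276 at 11 bp. Just past the edge, the smallest overlap was 2 bp, of a peak 447 bp wide with a Sin3B myotube peak. The peak at chr4:40381606-40381611 overlapped a Sin3A myoblast peak by 4 bp and that at chr15:78905320-78905572 overlapped a Sin3A myotube peak by 6 bp. Joining peaks within 1 kb or asking for a larger overlap gave 726 to 990 regions in place of 880.

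Few of the regions lay close to each other. There were 773 with no other of the 880 within 10 kb, and the remaining 107 (12.2%) formed 44 chains with gaps under 10 kb, of which 33 were pairs. The longest chain by number had 7 regions in 21.5 kb at chr6:52174343-52195860, with widths of 200 to 717 bp, and 1 Sin3A myoblast and 1 Sin3B myotube region within 10 kb. A chain of 5 regions spanned 28.2 kb at chr15:102778398-102806643. At chr8:35870345-35872486, 4 regions of 315 to 609 bp stood within 2.14 kb, with no region of another list within 10 kb, and a further chain of 4 spanned 4.27 kb at chr12:74140386-74144654. In windows of 1 Mb the most was 9 regions, on chromosome 17, among 16 regions with Sin3B in myoblasts and 14 with Sin3B in myotubes. A window on chromosome 12 held 9 regions with Sin3B in myoblasts, of which 8 were in myoblasts alone.

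By chromosome, the 880 regions were set against the other 1468 regions with Sin3B in myoblasts. Of 20 chromosomes 0 passed the adjusted threshold (0% called, Fisher's exact test), and 3 had an unadjusted p under 0.05. On chromosome X, 17 regions were in myoblasts alone, against 8 others, so that they made 68.0% of the 25 there (interval 46.5 to 85.1). Their share of the class was 3.54 times that of the others (adjusted p = 0.0552 by Fisher's exact test). On X, 5 of the 17 were under 50 bp wide, with widths of 8 to 774 bp and a median of 305 bp. On chromosome 8 there were 69 against 83 others (45.4%, adjusted p = 0.280), and on chromosome 10 there were 36 against 93 (27.9%, adjusted p = 0.244), both by Fisher's exact test. All other chromosomes ranged from 30.7% on chromosome 4 to 47.6% on chromosome 7. When peaks within 1 kb were merged, X passed, at 3.75 times (adjusted p = 0.0352 by Fisher's exact test). It was 2.96 times with an overlap of 50% of the shorter peak asked for (adjusted p = 0.114) and 2.97 times without peaks under 50 bp (adjusted p = 0.228), both by Fisher's exact test.

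**Figure D5:**
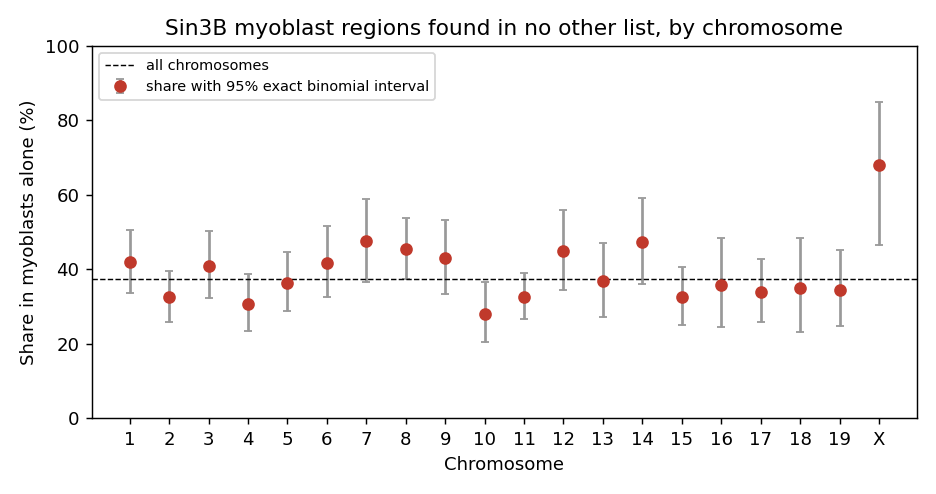
Share of the regions with Sin3B in myoblasts that were in no other list (%), by chromosome, with 95% exact binomial intervals, and a dashed line at the share over all chromosomes, 37.5%. The intervals of X (68.0%) and chromosome 10 (27.9%) lie to 1 side of the line and most others cross it.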

How the data were processed

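Per the labels, Sin3A and Sin3B were mapped by chromatin immunoprecipitation and sequencing, with 18 cycles of PCR. The authors deposited each peak list as chromosome, start and end with no score, p-value or header. No source used here names the aligner, caller, threshold, use of the 3 input samples or genome build, so depth is unknown and intervals cover counting error only. Identical files within a group were counted once. Whether peaks were called on pooled reads is not given either.

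The 7606 peaks were merged at an overlap of 1 bp, and starts were counted from 1. Gene names and promoter windows came from RefSeq tables of GRCm38.p6, used only in stretches where peaks and gene starts coincided at zero shift, with a minimum stretch score of 4. No coordinates were converted. A gene start was a known start, or either end of a gene without a promoter entry. The planned tests of region sequence, which need a genome of the files' build, were not run. Shares carry 95% Clopper-Pearson intervals and were compared by Fisher's exact test, medians by permutation (100000 resamples), all two-sided with Benjamini-Hochberg adjustment and a threshold of 0.05. Since regions of 1 list share their library, these p-values say nothing of variation between cultures. Named genes were only some of those at the 38 placed regions, mostly picked by known role. Named regions were the widest, the most isolated, those at the edge of the rule and the longest chains. The regions, lists, motifs and tests were chosen with earlier results of these data known. Scripts were tested on simulated data. The count of placed genes in 1 list is not reported here. The work used scipy 1.17.1 and pandas 2.3.3 under Python 3.11.15, and figures were drawn with matplotlib 3.10.9.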

Additional observations from a re-analysis of the deposited data

How the results depend on the processing

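Of 68 alternative values 49 kept their direction and their side of the threshold, or stayed within 1.5 times the count. Among them are values that could not change, from leaving out a sample and, for the share near gene starts, chromosome X. With the wider peaks of each list (ranked above its middle) 570 regions were left, and merging within 1 kb put 1 chromosome, X, past the threshold, at 3.75 times. X was 2.96 times at an overlap of 50% of the shorter peak and 2.97 times without peaks under 50 bp, with adjusted p of 0.114 and 0.228 by Fisher's exact test. The lower share near gene starts lost its call in most alternatives. Against regions of both stages the difference in percentage points was -12.2 when merging within 1 kb, -14.7 at an overlap of 50% of the shorter peak, -8 with the wider peaks, -15.9 without peaks under 50 bp, -12.8 with stretches placed from all regions and -13.9 on chromosome 16 only. It reversed to 1.68 with starts within 5 kb. Its adjusted p ran from 0.0212 to 1. Against regions of myotubes alone it was, in the same order of the first 6 settings, -13.9, -14.6, -3.24, -11.4, -11.9 and -15.5. It was -11.9 with starts within 500 bp, -2.04 within 5 kb and -14.9 with protein-coding genes only, and the adjusted p ran from 0.0454 to 0.996. The cause of these shifts was not tested, and some of these settings also leave fewer regions. The 7 stretches that place the genes, those from all regions, chromosome 16 alone and the windows without those shared between classes were chosen after seeing the data. Leaving out a sample changed nothing, because the files of a group are identical. No paired analysis was possible because each group gave 1 distinct list. Gene results cover 38 of the 880 regions, on 6 chromosomes, and cannot speak for the rest.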
